A study of Homo sapiens with 6 samples.

Results

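The genes described here are the enzymes that make and rearrange disulfide bonds in secreted and membrane proteins, in MDA-MB-453 cells that overexpressed ZNF207. They are 4 oxidases (QSOX1, QSOX2, ERO1A and ERO1B) and 6 protein disulfide isomerases (P4HB, PDIA3, PDIA4, PDIA5, PDIA6 and TXNDC5), 10 of the 60569 gene names in the deposited table. They were chosen by family membership, each as the row with that symbol, with the FPKM difference between the groups in view. That difference is therefore described for them and not tested.

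MDA-MB-453 is an established human breast cancer line with luminal features. One group of 3 libraries came from cells transfected with a ZNF207 overexpression construct and the other group of 3 from cells transfected with a control vector, each replicate being an independent one per the series' design text. The promoter of the construct, the time after transfection and whether cells were selected are not stated in the sources used here. ZNF207 encodes a zinc finger protein of the spindle checkpoint. Values are FPKM, which adjust fragment numbers for the length of the transcript and for library size, so levels of different genes can be set beside each other.

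An oxidoreductase of this pathway works through a pair of cysteines that cycle between a disulfide and free thiols. Isomerases of the endoplasmic reticulum (ER) pass their disulfide to a client protein, and are reduced in doing so, or reshuffle the wrong bonds in it. The ERO1 flavoproteins reoxidise the isomerases, P4HB above all, and hand the electrons to oxygen, which yields hydrogen peroxide. The QSOX flavoproteins carry a thioredoxin-like domain and an oxidase domain in 1 chain, and act in the Golgi and outside the cell.

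An active site of these isomerases is Cys-Gly-His-Cys. Its codons are shown because they set these isomerases and the QSOX enzymes apart from the ERO1 enzymes. An in-frame search of 1 principal GENCODE v29 transcript per gene found this site 3 times in PDIA4 and TXNDC5, 2 times in P4HB, PDIA3 and PDIA6, and 1 time in PDIA5, QSOX1 and QSOX2. ERO1A and ERO1B had 0 such sites, and each had 2 pairs of cysteines spaced in the same way. The first site of each gene is printed as coding sequence, with capitals on the codons of the 4 residues.
QSOX1: gcctcctggTGCGGCCACTGCatcgccttc
QSOX2: tcgtcgtggTGTGGCCACTGCatcggctac
P4HB: gccccttggTGTGGCCACTGCaaggctctg
PDIA3: gccccctggTGTGGACACTGCaagagactt
PDIA4: gctccatggTGTGGACATTGCaagcagttt
PDIA5: gccccatggTGTGGCCACTGTaagaaaatg
PDIA6: gctccatggTGTGGTCACTGTcaaagatta
TXNDC5: gcgccctggTGTGGACACTGCcagcggctg

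ZNF207 stood at 885, 786 and 750 FPKM in overexpression libraries, against 69.2, 67.0 and 63.7 FPKM in control libraries. Between 13061 and 13231 genes per library reached an FPKM of 1, and the FPKM of 1 library added up to 589550 at the lowest and 612875 at the highest. A fit over the 13185 genes that passed a filter on low values (limma, Benjamini-Hochberg adjustment, threshold 0.05) called 0.212% of them, 0.159% as lower and 0.0531% as higher in overexpression libraries. Before adjustment, 7.03% were lower and 5.08% higher at 0.05. Of 9 markers of the line, 8 were tested and none was called (limma, with 1 higher and 1 lower before adjustment). FGFR4 (57.8 to 72.5 FPKM in overexpression libraries and 49.5 to 56.1 FPKM in controls) and FOXA1 (147 to 155 FPKM with overexpression and 129 to 146 FPKM in controls) were higher without overlap. KRT19 (1515 to 1602 FPKM with overexpression and 1767 to 1963 FPKM in controls) and KRT8 (2808 to 2862 FPKM with overexpression and 2974 to 3064 FPKM in controls) were lower without overlap. Over all genes tested, 7.61% were higher and 10.4% lower without overlap. The groups overlapped for ERBB2 (65.9 to 72.5 FPKM with overexpression and 60.6 to 68.9 FPKM in controls), GATA3 (223 to 235 FPKM with overexpression and 222 to 249 FPKM in controls) and KRT18 (1248 to 1273 FPKM with overexpression and 1258 to 1365 FPKM in controls). The part of these markers in the differences of the 10 genes was not tested. TFAP2B was near 0, at 0.113 to 0.180 FPKM in overexpression libraries and 0.174 to 0.254 FPKM in controls. Of 10 markers of other cells, COL1A1 reached 7.98 to 9.94 FPKM in overexpression libraries and 8.82 to 11.3 FPKM in controls, and CD68 reached 0.696 to 1.4 FPKM in overexpression libraries and 0.900 to 1.24 FPKM in controls. VWF stood at 0.164 to 0.490 FPKM in overexpression libraries and 0.0735 to 0.240 FPKM in controls. COL1A2 reached 0.456 FPKM in control replicate 2 and was at or near 0 in the other 5 libraries, and PTPRC, CD3E, PECAM1, DCN, KRT5 and KRT14 were at or near 0 in all 6.

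All 10 genes passed the filter on low values, 9 of them with an FPKM of at least 1 in all 6 libraries, ERO1B being the exception. In 4 of the 10 (QSOX1, ERO1A, P4HB and PDIA3) every overexpression library lay below every control library. This pattern held for 10.4% of the 13185 genes tested. PDIA4 showed the opposite order without overlap, a pattern held by 7.61% of genes tested. In the other 5 the groups overlapped. In bulk libraries like these, fewer cells with a transcript and less transcript per cell cannot be told apart. The median log2 difference was -0.09 over the 10 genes and -0.01 over all genes tested.

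**Figure D1:**
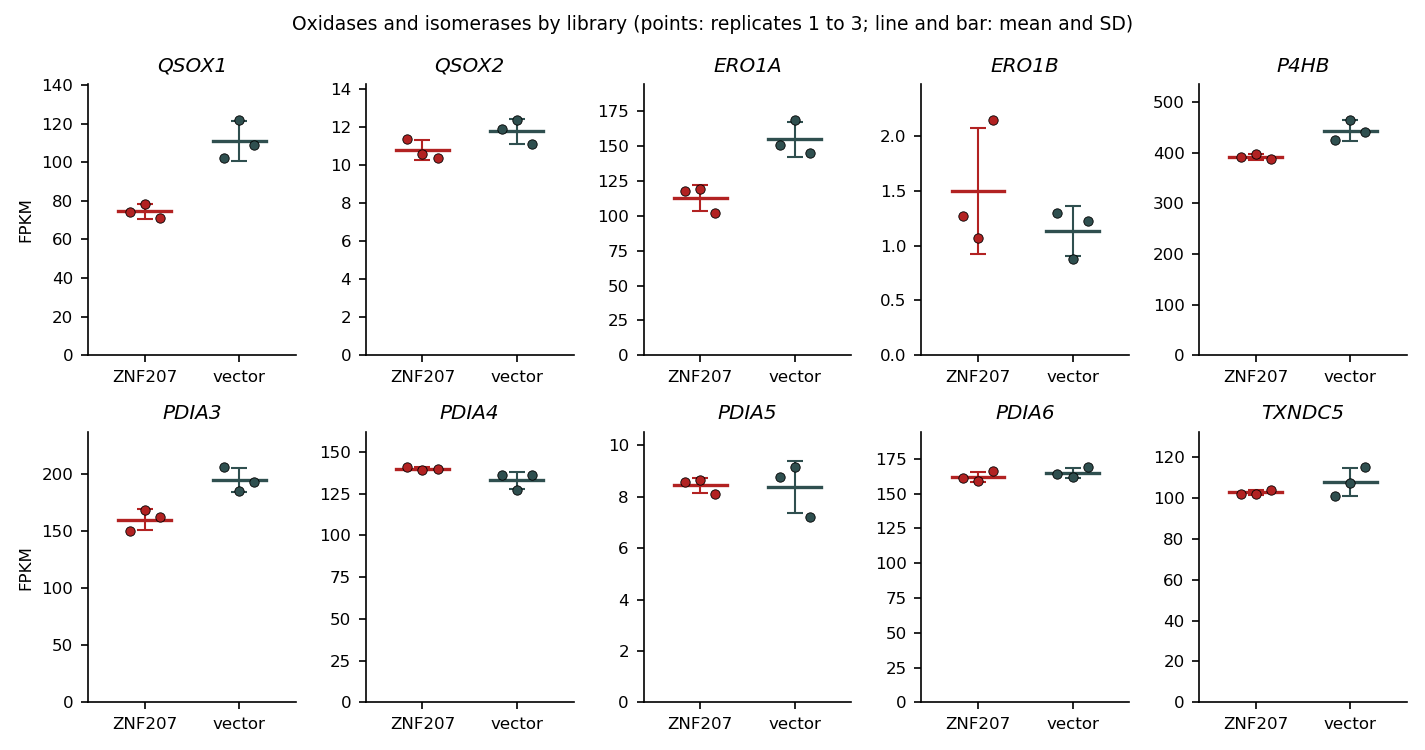
FPKM (y axes, from 0) of the 10 genes in each library of ZNF207 overexpression (left, red) and control vector (right, dark grey). Points are libraries, horizontal lines are means and bars are SD (n = 3 each). The groups are apart for QSOX1, ERO1A, P4HB, PDIA3 and PDIA4 and overlap for the other 5.

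The largest difference among the 10 genes was that of QSOX1, the main secreted sulfhydryl oxidase (chromosome 1, 180154834 to 180204030, plus strand, GENCODE v29 on GRCh38). QSOX1 stood at 74.3, 78.5 and 70.9 FPKM in overexpression libraries, against 102, 122 and 109 FPKM in control libraries. The highest overexpression library was thus well below the lowest control. The means were 74.6 ± 3.80 FPKM with overexpression and 111 ± 10.1 FPKM in controls (SD, n = 3 each), 32.8% lower with overexpression. The difference in log2(FPKM + 1) was -0.56 (SE 0.07). It lay between -0.62 and -0.49 over 13 other settings.

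QSOX2, the paralog encoded on chromosome 9 (136206333 to 136245841, minus strand), was far less abundant, and QSOX2 stood at 11.4, 10.6 and 10.4 FPKM in overexpression libraries and at 11.9, 12.4 and 11.1 FPKM in controls. The groups overlapped, and the log2 difference was -0.12 (SE 0.08). QSOX1 was therefore 6.53, 7.38 and 6.82 times as abundant as QSOX2 in overexpression libraries and 8.57, 9.80 and 9.79 times in controls. A nucleotide BLAST search listed no alignment between the principal transcripts of QSOX1 and QSOX2.

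ERO1A, the widely expressed ER oxidase known to be induced by low oxygen (chromosome 14, 52639916 to 52695900, minus strand), came next in size. Its transcript stood at 118, 119 and 102 FPKM in overexpression libraries, against 151, 169 and 145 FPKM in control libraries. All overexpression libraries were lower, and their mean was 27.2% below the control mean (113 ± 9.56 FPKM with overexpression and 155 ± 12.9 FPKM in controls). The log2 difference was -0.46 (SE 0.08), with a range of -0.50 to -0.38 over 13 other settings, all below 0.

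ERO1B, a paralog best known from the pancreas (chromosome 1, 236215555 to 236281985, minus strand), was barely expressed, and ERO1B stood at 1.27, 1.07 and 2.15 FPKM in overexpression libraries and at 1.30, 0.878 and 1.23 FPKM in controls. Overexpression replicate 3 held the highest value and the groups overlapped. The log2 difference was 0.21 (SE 0.19) and 0.03 without that library. The principal transcripts of ERO1A and ERO1B were 68.8% identical over 1277 aligned bases. ERO1A exceeded ERO1B by 92.7, 111 and 47.4 times in overexpression libraries and by 116, 193 and 118 times in controls, so nearly all ERO1 transcript came from ERO1A. The 4 oxidases together summed to 205, 209 and 185 FPKM in overexpression libraries, against 266, 305 and 266 FPKM in controls.

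P4HB, the founding protein disulfide isomerase and the preferred partner of ERO1A, was the most abundant of the 10 genes (chromosome 17, 81843159 to 81860694, minus strand). P4HB stood at 391, 398 and 387 FPKM in overexpression libraries, against 425, 465 and 441 FPKM in control libraries. The overexpression libraries were all lower and lay closer together, with a mean of 392 ± 5.45 FPKM against 444 ± 20.0 FPKM in controls, 11.6% lower. The log2 difference was -0.18 (SE 0.05). P4HB made up about the same share of the summed FPKM of the 10 genes in both groups, 33.6% to 33.8% in overexpression libraries and 32.5% to 34.2% in controls.

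PDIA3, an isomerase that works on glycoproteins with calnexin and calreticulin and sits in the peptide loading complex, lies on chromosome 15 (43746392 to 43773279, plus strand). PDIA3 stood at 150, 168 and 162 FPKM in overexpression libraries, against 206, 185 and 193 FPKM in control libraries. The groups did not overlap, and the mean was 17.7% lower with overexpression (160 ± 9.01 and 195 ± 10.7 FPKM, log2 difference -0.28, SE 0.06). PDIA3 shares its listed locus with 8 other rows. ERO1A, ERO1B, P4HB, PDIA5, PDIA6 and TXNDC5 share theirs with 1 to 7 other rows, and QSOX1, QSOX2 and PDIA4 with none. PDIA3 also has a processed copy on chromosome 1, PDIA3P1, 97.8% identical over 1088 bases. The copy was listed at 5.90, 5.99 and 6.77 FPKM in overexpression libraries and at 4.73, 4.51 and 6.38 FPKM in controls. How reads shared by PDIA3 and PDIA3P1 were assigned is not given in the sources used here, so both values carry that uncertainty. The copy held little signal beside PDIA3, which exceeded it by 24.0 to 28.1 times in overexpression libraries and by 30.2 to 43.6 times in controls.

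PDIA4, an isomerase of the multi-chaperone complex around BiP, had the opposite order (chromosome 7, 149003062 to 149028641, minus strand). PDIA4 stood at 141, 139 and 140 FPKM in overexpression libraries, against 136, 127 and 136 FPKM in control libraries. The gap between the groups was narrow, and the log2 difference was 0.07 (SE 0.05). The ratio of PDIA4 to PDIA3 was 0.937, 0.824 and 0.866 in overexpression libraries, against 0.659, 0.687 and 0.704 in controls. That these ratios did not overlap follows from the opposite order of PDIA4 and PDIA3 and is no further result.

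The remaining 3 isomerases differed by less than 0.1 on the log2 scale. PDIA6, which cooperates with BiP, stood at 161, 159 and 166 FPKM in overexpression libraries and at 164, 162 and 169 FPKM in controls (log2 difference -0.03, SE 0.05). TXNDC5, an isomerase with 3 active sites that ERO1 oxidases can recharge, stood at 102, 102 and 104 FPKM with overexpression and at 101, 107 and 115 FPKM in controls (log2 difference -0.07, SE 0.06). PDIA5, a low-abundance member, stood at 8.58, 8.63 and 8.09 FPKM with overexpression and at 8.76, 9.15 and 7.21 FPKM in controls (log2 difference 0.01, SE 0.10). In all 3 the groups overlapped. The sign of the PDIA5 difference was negative in 2 of 13 other settings. TXNDC5 shares its listed locus with a read-through gene, BLOC1S5-TXNDC5, listed at 0 to 0.439 FPKM in overexpression libraries and at 0 to 1.04 FPKM in controls. The principal transcripts of the 2 were identical over 2659 aligned bases, and how their shared reads were assigned is not given in the sources used here, so the TXNDC5 values carry that uncertainty too.

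**Figure D2:**
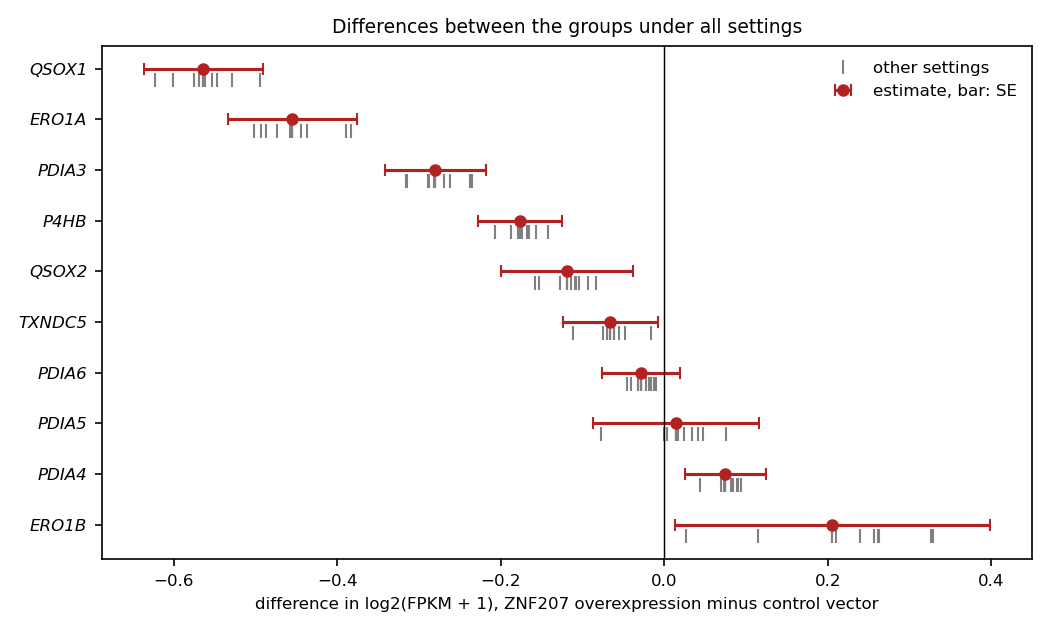
Difference in log2(FPKM + 1), ZNF207 overexpression minus control vector (x axis), for each of the 10 genes, ordered from the most negative at the top. Points with bars are the estimates with their SE, and grey ticks are the estimates under 12 or 13 other settings. The ticks of QSOX1, QSOX2, ERO1A, P4HB, PDIA3, PDIA6 and TXNDC5 are all below 0, those of ERO1B and PDIA4 all above it, and those of PDIA5 on both sides.

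The order of the levels differed between the groups at a few places. In overexpression libraries P4HB led at 392 FPKM, followed by PDIA6 (162) and PDIA3 (160), whose libraries overlapped, then PDIA4 (140), then ERO1A (113) and TXNDC5 (103), which also overlapped, then QSOX1 at 74.6 FPKM. In control libraries P4HB was followed by PDIA3 (195), by PDIA6 (165) and ERO1A (155), whose libraries overlapped, by PDIA4 (133), and by QSOX1 (111) and TXNDC5 (108), which overlapped. QSOX2, PDIA5 and ERO1B came last in that order in both groups. The 6 isomerases summed to 954, 975 and 968 FPKM in overexpression libraries, against 1041, 1056 and 1061 FPKM in controls. All 10 genes held 0.189% to 0.199% of the summed FPKM in overexpression libraries, against 0.216% to 0.223% in controls.

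Partners and neighbours of these enzymes in oxidative folding were examined in the same fit. Their lists were chosen with earlier results of these data known, so their counts are not independent evidence. Beside them stand the shares over all genes given above, 5.08% higher and 7.03% lower before adjustment. P4HB is also the beta subunit of collagen prolyl 4-hydroxylase and of the microsomal lipid transfer complex. Of 4 listed partners, P4HA3 and MTTP were below the filter. Of the 2 tested, 1 fell and 1 did not pass (limma, with 0 higher and 2 lower before adjustment at 0.05). Over all genes tested, 0.159% were called as lower. The median of the 2 was -0.48, against -0.01 over all genes. P4HA1, a catalytic alpha subunit, fell to 119, 124 and 112 FPKM in overexpression libraries, against 165, 172 and 163 FPKM in controls (log2 difference -0.49, SE 0.06, limma adjusted p = 0.012). The call of P4HA1 was lost in 5 of 13 other settings (adjusted p 0.0521 to 0.140), namely without control replicate 2, without overexpression replicate 1 or 3, without a filter and without a variance trend. P4HA2, named after its values were seen, stood at 39.3, 42.8 and 40.6 FPKM with overexpression and at 48.7, 65.7 and 57.8 FPKM in controls (limma adjusted p = 0.0958). The ratio of P4HB to P4HA1 was 3.30, 3.20 and 3.47 in overexpression libraries, against 2.58, 2.70 and 2.71 in controls. This ratio restates the levels of P4HB and P4HA1 and is no further result.

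Among other proteins of the isomerase family in the ER, 16 were listed and 12 tested, of which none was called (limma, with 1 higher and 0 lower before adjustment at 0.05). TMX2, TXNDC15 and DNAJC10 were higher without overlap, a pattern held by 7.61% of all genes tested, and 0 of the 12 were lower without overlap. Their median log2 difference was 0.03. AGR2, a mucin-folding isomerase of secretory epithelium, stood at 9.40, 10.1 and 12.5 FPKM with overexpression and at 8.33, 7.82 and 9.90 FPKM in controls (adjusted p = 0.426). TXNDC15, a membrane thioredoxin-like protein, stood at 14.5, 15.9 and 16.5 FPKM with overexpression and at 12.9, 12.2 and 14.3 FPKM in controls (adjusted p = 0.314). PDIA2, PDILT, AGR3 and ERP27 were below the filter. PDIA2 stood at 0.549 to 0.562 FPKM with overexpression and at 0.933 to 1.48 FPKM in controls.

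Of 10 other genes of thiol redox in the ER and mitochondria, 9 were tested and none was called (limma, with 0 higher and 2 lower before adjustment at 0.05), and their median was -0.04. VKORC1, the vitamin K epoxide reductase, whose turnover oxidises thiols in the ER, stood at 120, 128 and 122 FPKM in overexpression libraries, against 158, 195 and 165 FPKM in controls. Its groups did not overlap, and its log2 difference of -0.47 (SE 0.08) did not pass the test (limma adjusted p = 0.0534). VKORC1 did pass in 3 of 13 other settings (adjusted p 0.0144 to 0.035): the higher filter, the replicate block and without control replicate 1. PRDX4, a peroxiredoxin that uses the hydrogen peroxide made by ERO1 enzymes, stood at 141, 148 and 134 FPKM with overexpression and at 145, 188 and 164 FPKM in controls (adjusted p = 0.34). GPX7 was listed at 0 in all 6 libraries.

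The lectin cycle, in which calnexin and calreticulin bring glycoproteins to PDIA3, had 13 listed and 13 tested genes, none of them called (limma, with 1 higher and 0 lower before adjustment at 0.05). Their median was -0.01, equal to that of all genes. CALR stood at 555, 576 and 580 FPKM with overexpression and at 515, 539 and 568 FPKM in controls, overlapping (adjusted p = 0.611). CANX stood at 386, 393 and 423 FPKM with overexpression and at 379, 386 and 415 FPKM in controls (adjusted p = 0.901). CALR and CANX were named after their values were seen, as the lectin partners of PDIA3. The ratio of PDIA3 to CALR was 0.271, 0.292 and 0.279 in overexpression libraries, against 0.401, 0.344 and 0.339 in controls. This ratio restates the levels of PDIA3 and CALR and is no further result. By the naming rule, EDEM3, a mannose-trimming protein of ER-associated degradation, had a log2 difference of 0.20 (adjusted p = 0.32), and UGGT2, a glucosyltransferase of the folding check, had -0.11 (adjusted p = 0.731).

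Of 15 listed ER chaperones and prolyl isomerases outside the disulfide isomerase family, 14 were tested and none was called (limma, with 4 higher and 1 lower before adjustment at 0.05). Their median was 0.10, and 10 estimates were above 0. Without overlap, 5 were higher and 2 lower, patterns held by 7.61% and 10.4% of all genes tested. DNAJB9, a BiP co-chaperone induced by ER stress, stood at 86.0, 87.8 and 103 FPKM with overexpression and at 66.3, 69.9 and 75.4 FPKM in controls (adjusted p = 0.0958). DNAJB9 was past the threshold with the replicate block (limma adjusted p = 0.0171). HYOU1, a large chaperone that serves BiP as exchange factor, stood at 54.0, 52.4 and 59.5 FPKM with overexpression and at 45.1, 44.8 and 47.7 FPKM in controls (adjusted p = 0.134). HSPA5, which encodes BiP and was named after its values were seen, stood at 192, 187 and 203 FPKM with overexpression and at 164, 157 and 173 FPKM in controls (adjusted p = 0.127). The ratio of PDIA6 to HSPA5 was 0.835, 0.851 and 0.816 in overexpression libraries, against 1.00, 1.03 and 0.979 in controls. This ratio restates the levels of PDIA6 and HSPA5 and is no further result.

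**Figure D3:**
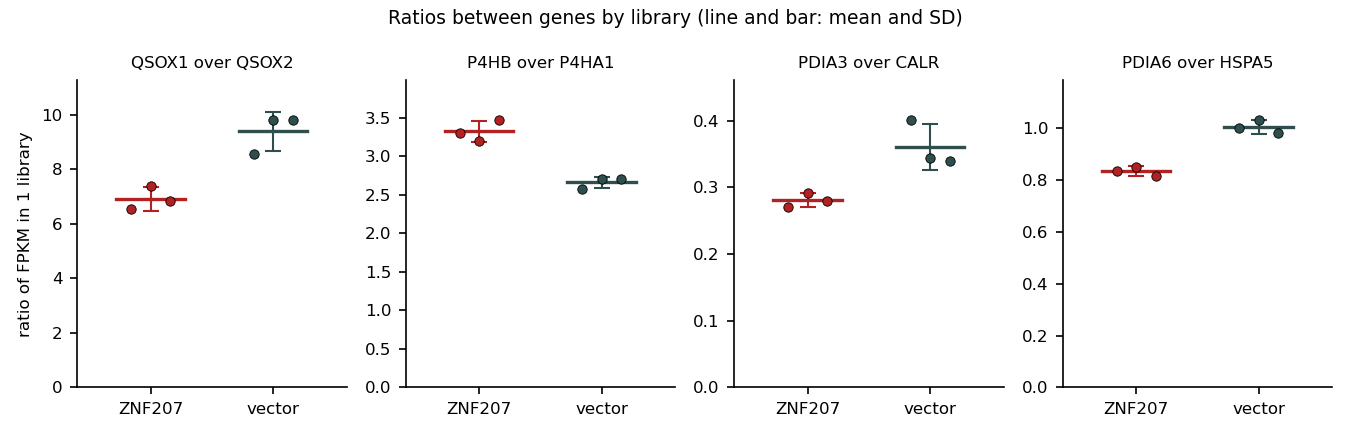
Ratio of the FPKM of 2 genes within a library (y axes, from 0) for ZNF207 overexpression (left, red) and control vector (right, dark grey). Points are libraries, lines are means and bars are SD (n = 3 each). The ratio of P4HB to P4HA1 is higher with overexpression, and the other 3 ratios are lower. Each ratio follows from the levels of its 2 genes given in the text and is no further result.

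Of 14 regulators of ER stress and of the oxygen response, all were tested and none was called (limma, with 2 higher and 0 lower before adjustment at 0.05), and their median was 0.05. HIF1A, the oxygen-regulated subunit of the hypoxia factor that induces ERO1A, stood at 75.0, 71.1 and 82.9 FPKM in overexpression libraries, against 55.5, 49.0 and 61.0 FPKM in controls. The groups of HIF1A did not overlap and its log2 difference was 0.46 (SE 0.09, limma adjusted p = 0.0751). It was past the threshold with the higher filter (0.0434) and with the replicate block (0.0123). CREB3L1, a membrane-bound factor of secretory cells, had a log2 difference of 0.36 (adjusted p = 0.364).

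**Figure D4:**
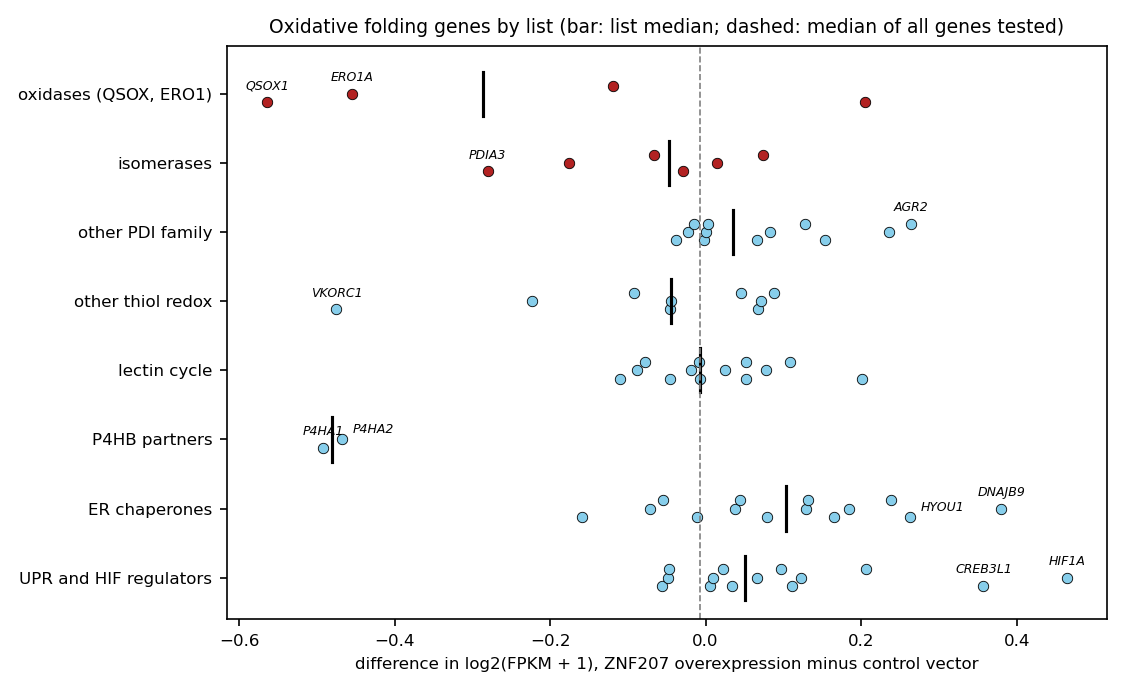
Difference in log2(FPKM + 1), ZNF207 overexpression minus control vector (x axis), for each tested gene of the lists named on the y axis, with the 10 genes in red and other genes in light blue. Black bars are list medians and the dashed line is the median of all 13185 genes tested. Genes beyond 0.26 in either direction are named, and among the genes in light blue only P4HA1 passed the threshold over all genes.

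Promoters were searched for short elements known from hypoxia and ER stress, and for a palindrome, CCACGTGG. Some matches are shown so that members with unlike differences can be compared. The RefSeq promoter table (GRCh38.p14, 250 bases before to 50 after a start) held 8 of the 10 genes with 11 starts. QSOX2 and PDIA3 were not among them. The hypoxia core, ACGTG or GCGTG on either strand, is so short that 48.4% of 35116 promoters hold it, and it was found at 9 of the 11 starts. The palindrome CCACGTGG contains the letters of that core on both strands, which alone do not make it a hypoxia element. It occurs in 0.928% of promoters. It was found in QSOX1, 59 to 52 bases before the start, and in PDIA5, 121 to 114 bases before the start. The overexpression mean of QSOX1 was 32.8% below its control mean, while that of PDIA5 differed from its control mean by 0.716%. Whether the palindrome has a part in either value was not tested.

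The distance given above for the QSOX1 palindrome was counted from the RefSeq start, which lies downstream of the GENCODE start. The stretch before the GENCODE start, outside annotated exons (chr1:180154619-180154833, GRCh38.p14, plus strand), is printed with the palindrome in capitals.
QSOX1: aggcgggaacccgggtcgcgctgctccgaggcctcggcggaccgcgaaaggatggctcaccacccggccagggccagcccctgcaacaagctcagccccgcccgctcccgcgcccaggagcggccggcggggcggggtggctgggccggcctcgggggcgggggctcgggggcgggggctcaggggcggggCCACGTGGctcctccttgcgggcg

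ERO1A held 3 hypoxia cores in its window and none of the longer elements. The ER stress element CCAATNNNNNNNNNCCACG, on either strand, occurs in 0.0769% of promoters (27 of 35116). It was found in 2 members, ERO1B and 1 of the 2 starts of PDIA6, and both of these had overlapping groups. The element TGACGTGG, known as a binding site of unfolded protein response factors, occurs in 0.729% of promoters and was found at 1 of the 2 starts of TXNDC5. It overlaps the hypoxia core. Starts are those of RefSeq, and the windows below of ERO1A, P4HB, PDIA6 and TXNDC5 lie inside the GENCODE spans of these genes. A window of 30 bases around 1 match follows for each of the 7 genes with a match other than QSOX1. Each is read 5′ to 3′ on the strand of the gene, with the match in capitals.
PDIA5 (chr3:123066893-123066922, palindrome): ttcactcgctgCCACGTGGcctcggagccc
ERO1A (chr14:52695655-52695684, hypoxia core on the opposite strand): cgggcgccgcggCACGTccacaggctgggt
PDIA4 (chr7:149028689-149028718, hypoxia core on the opposite strand): aagggggcacctCACGTtagggctcggagt
P4HB (chr17:81860607-81860636, hypoxia core): ggccccagcggcGCGTGcgcgccgcggcca
PDIA6 (chr2:10812847-10812876, ER stress element): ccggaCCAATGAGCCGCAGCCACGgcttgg
ERO1B (chr1:236282177-236282206, ER stress element on the opposite strand): gcccgCGTGGTCCCGCCTCATTGGccgccg
TXNDC5 (chr6:7910151-7910180, TGACGTGG): gcactggcggcTGACGTGGcgctcggcggc

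A match describes letters in a window and no binding was measured here. Any link of a match to a difference between the groups was not tested.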

How the data were processed

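RNA of 6 MDA-MB-453 libraries (3 with the ZNF207 construct, 3 with the control vector) was analysed from the authors' deposited table of FPKM values, 1 column per library. The submitters' processing notes name hg38 and the tools DESeq2 1.4.5, RSEM 1.3.1 and Bowtie2. What each tool did, the annotation, strandedness and filters are not stated in the sources used here. Columns were matched to samples by name alone (NC as control, the number of ZNF207 as the construct, final digit as replicate). Of 60658 rows, the one with the highest mean was kept per name.

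Values were compared as log2(FPKM + 1) for the 13185 genes that reached an FPKM of 1 in 3 or more libraries, with limma 3.58.1 in R 4.3.3 (mean-variance trend, two-sided, Benjamini-Hochberg over all genes tested, threshold 0.05). The scale understates differences of low genes. The procedure was tested on simulated data. Read depth is unknown: the most common ratio between any pair of libraries was found in 0.431% of 3251 low genes, so whole reads could not be recovered. Replicates shared at most 8 identical tested values, and each was counted as its own sample. Alternatives were another pseudocount (0.1), no filter, a filter at an FPKM of 5, TPM or median-of-ratios scaling, no variance trend, the replicate block, and each library left out.

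The members and lists were chosen with earlier results of these data known. All 10 members were named, then up to 3 called genes of each other list, or the 2 with the largest absolute difference where none was called. Transcripts were compared with BLAST 2.17.0. Coordinates are from GENCODE v29 (GRCh38), promoters from RefSeq (GRCh38.p14). The values of 1 marker of the line are not reported here.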

Additional observations from a re-analysis of the deposited data

How the results depend on the processing

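The number of genes called over all genes was 28, and it was 4 without a filter, 64 with the filter at an FPKM of 5, 17 with median-of-ratios scaling, 5 without a variance trend, 145 with the replicate block and 4 to 36 with 1 library left out. Among partners of P4HB the number called was 1, and it was 0 without a filter or a variance trend, 2 with the replicate block and 0 to 2 with 1 library left out. Other thiol redox genes had 1 call with the filter at an FPKM of 5 or the replicate block and 0 to 1 with 1 library left out, ER chaperones had 2 with the replicate block, and the regulators had 1 with the filter at an FPKM of 5 or the replicate block. The cause of these moves was not tested. Each member's difference moved by less than its within-group SD in every setting run. ERO1B had no value with the filter at an FPKM of 5.

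Same-numbered libraries of the groups had correlated deviations of 0.14, 0.01 and 0.17. The sources used here give no pairing, so the numbers were not taken as pairs and the replicate block is given only as an alternative. Overexpression replicates 1 and 3 correlated best with the control of the same number (0.14 and 0.17), and replicate 2 with control replicate 3 (0.05). Whether same-numbered libraries were handled together is not known. The read depth behind each FPKM is unknown.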
